A study of Mus musculus with 18 samples.

Results

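To examine how the neurexins, the neuroligins and the Lrrtm genes were expressed in mice lacking Pcm1, a gene for a protein of the centriolar satellites, the 9 genes Nrxn2, Nrxn3, Nlgn1, Nlgn2, Nlgn3, Lrrtm1, Lrrtm2, Lrrtm3 and Lrrtm4 were followed by name through mRNA sequencing of the adult mouse brain. They are 9 of the 38561 genes counted, namely 2 neurexins, 3 neuroligins and 4 Lrrtm genes. The study sequenced 18 libraries, 3 from each of frontal cortex, striatum and hippocampus in 3 wild-type (WT) and 3 Pcm1-/- mice. The mutants carried a gene-trap insertion in Pcm1 from an embryonic stem cell line and had been backcrossed onto C57BL/6J, and the WT mice were their littermates. All the mice were adult, with no age in days given, and none received a treatment. The labels name the genotypes WT and PCM1 KO and the strain C57 Bl6J.

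Neurexins are presynaptic membrane proteins, and neuroligins and LRRTM proteins are their postsynaptic partners, which bind them across the synaptic cleft. Neuroligin 1 is known mainly from excitatory synapses, neuroligin 2 from inhibitory synapses, and neuroligin 3 from both. LRRTM proteins carry leucine-rich repeats and are known from excitatory synapses, and LRRTM4 also binds heparan sulfate proteoglycans such as glypicans. Neurexin and neuroligin genes are expressed by neurons in the brain.

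The members of each family are paralogs, and only reads with a single genome position were counted, so the likeness of their coding sequences bears on the counts. Over the aligned coding bases of the longest complete transcripts in GENCODE (genome build GRCm38), Nrxn2 and Nrxn3 were 70.4% identical. The neuroligin pairs were 68.6% to 72.3% identical, and the Lrrtm pairs 61.1% to 67.7%. The longest run of bases shared without a mismatch was 23 bases, within the neurexins and within the neuroligins, and 19 bases within the Lrrtm genes. The last 60 coding bases, which encode the end of the cytoplasmic tail and the stop codon, are given next. They were compared without alignment, so they are no measure of this identity. Each is printed 5′ to 3′ on its gene's strand, with capitals at the positions, counted back from the stop codon, where the printed members of its family did not all have the same base.
Nrxn2 (chr19:6532089-6532148, plus strand): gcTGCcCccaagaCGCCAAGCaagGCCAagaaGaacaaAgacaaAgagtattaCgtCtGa
Nrxn3 (chr12:90332351-90332410, plus strand): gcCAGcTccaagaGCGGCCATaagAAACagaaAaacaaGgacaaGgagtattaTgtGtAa
Nlgn1 (chr3:25433638-25433697, minus strand): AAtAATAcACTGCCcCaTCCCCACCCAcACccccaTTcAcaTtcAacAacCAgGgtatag
Nlgn2 (chr11:69825203-69825262, minus strand): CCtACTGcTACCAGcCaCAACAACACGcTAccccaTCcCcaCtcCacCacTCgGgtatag
Nlgn3 (chrX:101320203-101320262, plus strand): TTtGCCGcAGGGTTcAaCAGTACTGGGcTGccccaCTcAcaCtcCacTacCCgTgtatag
Lrrtm1 (chr6:77245071-77245130, plus strand): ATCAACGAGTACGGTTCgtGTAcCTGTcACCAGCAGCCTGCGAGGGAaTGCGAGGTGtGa
Lrrtm3 (chr10:63930058-63930117, minus strand): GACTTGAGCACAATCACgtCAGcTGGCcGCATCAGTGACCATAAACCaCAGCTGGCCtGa
Lrrtm4 (chr6:80809130-80809189, plus strand): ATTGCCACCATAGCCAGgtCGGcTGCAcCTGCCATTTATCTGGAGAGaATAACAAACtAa
The neurexin tails shared 38 of 60 positions and the 3 neuroligin tails 26 of 60. The Lrrtm tails printed shared 7 of 60 positions, and came from coding sequences of 1569, 1749 and 1776 bases for Lrrtm1, Lrrtm3 and Lrrtm4.

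Lrrtm1 and Lrrtm3 had the widest differences between brain regions, and the 250 bases before the start of each are shown for that reason, with every CG dinucleotide in capitals. The starts are those of RefSeq (GRCm38.p6) and differ from the GENCODE gene bounds given further below.
Lrrtm1 (chr6:77242227-77242476, plus strand): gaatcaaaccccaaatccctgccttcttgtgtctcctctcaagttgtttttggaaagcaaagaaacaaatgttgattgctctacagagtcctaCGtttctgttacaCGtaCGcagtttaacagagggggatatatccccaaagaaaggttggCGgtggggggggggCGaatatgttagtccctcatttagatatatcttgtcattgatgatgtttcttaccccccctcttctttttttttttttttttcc
Lrrtm3 (chr10:64090256-64090505, minus strand): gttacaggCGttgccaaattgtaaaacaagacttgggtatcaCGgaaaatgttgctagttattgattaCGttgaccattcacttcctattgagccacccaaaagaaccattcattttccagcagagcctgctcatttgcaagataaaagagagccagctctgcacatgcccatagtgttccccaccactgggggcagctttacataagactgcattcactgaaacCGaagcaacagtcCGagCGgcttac
The Lrrtm1 stretch held 5 CG dinucleotides and that of Lrrtm3 held 6, where the median over 32851 such stretches was 6. Neither stretch held GGGCGG or TATAAA on either strand, which occurred in 32.7% and 12.4% of all stretches. RefSeq stretches were found for 6 of the 9 genes, 10 in all, and that of Nlgn2 held 3 matches of GGGCGG and 18 CG dinucleotides. The letters CANNTG were present in 7 of the 10, against 66.2% of all stretches, and TGACG in none of the 10, against 17.8%. These are matches of letters only.

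On GRCm38, Nrxn2 lies on chromosome 19 from 6418731 to 6544169 and Nrxn3 on chromosome 12 from 88722876 to 90334935, both on the plus strand. Nlgn1 lies on chromosome 3 from 25426215 to 26332460 and Nlgn2 on chromosome 11 from 69823122 to 69837784, both on the minus strand, and Nlgn3 on chromosome X from 101299168 to 101325963 on the plus strand. Each of 3 Lrrtm genes lies inside an alpha-catenin gene and on its opposite strand. Lrrtm1 is inside Ctnna2, at 77242689 to 77257791 of chromosome 6, Lrrtm2 inside Ctnna1, at 35209003 to 35215024 of chromosome 18, and Lrrtm3 inside Ctnna3, at 63928472 to 64090277 of chromosome 10. Lrrtm4 lies on chromosome 6 from 80018877 to 80810143, on the plus strand. None of the 9 shares chromosome 8 with Pcm1. Lrrtm1 and Lrrtm3 share 0 exon bases with their host gene and Lrrtm2 shares 95, which is 1.58% of its exon bases. Nlgn3 shares 41.2% of its exon bases with the same-strand transcript Gm21986, which had 0 to 9 counts per library, and reads there could have been left out as ambiguous. Lrrtm4 shares 25.1% of its exon bases with the antisense transcript Gm4409, at 0 to 2 counts, and Nlgn1 9.16% with A830092H15Rik, at 56 to 278 counts. The strand setting of the counting is not given in the sources used here, so reads of antisense pairs cannot be told apart with certainty.

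The libraries held 24950537 to 33405081 counts on genes, and 86.8% to 89.2% of the reads assigned or left unassigned by the counting fell on a gene. Pcm1 was at 120 to 172 CPM (counts scaled to a common library size) in the WT libraries and at 11.8 to 17.6 CPM in the mutant ones, as labelled. The summed level of 5 markers of striatal projection neurons was 3656 to 4428 CPM in the striatum and 88.8 to 138 CPM elsewhere, and that of 5 cortical projection markers was 602 to 662 CPM in the frontal cortex and 41.9 to 188 CPM elsewhere. Of 50 markers of 13 cell types, 0 were without counts in a whole group. WT striatum replicate 3 stood apart, with 5883 CPM summed over 5 choroid plexus markers against 30.7 and 32.0 CPM in the other 2 WT striatum libraries and 8.18 to 138 CPM in the mutant ones. Oligodendrocyte markers, 4 genes, summed to 8337 to 8549 CPM in WT striatum and to 5020, 8315 and 5874 CPM in mutant striatum replicates 1 to 3. In the hippocampus they summed to 8948, 4388 and 7182 CPM in WT and to 4609, 3354 and 5430 CPM in mutants. The WT striatum libraries all came from sequencing lane 5 and the mutant ones from lanes 3 and 4, and there the effects of lane and of genotype cannot be told apart.

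All 9 genes were well covered, from 444 counts (the lowest library of Lrrtm4) to 21685 counts (the highest of Nrxn2), and all passed the filter on low counts. In CPM per kb of exon, the scale on which genes can be compared, Nlgn2 had the highest mean in every group, 47.3 in WT striatum and 65.9 in WT frontal cortex. Nrxn2 followed in the frontal cortex at 47.8, and Lrrtm4 was lowest of the 9 there, at 2.78. Lrrtm3 at 27.6 exceeded Nrxn2 at 25.5 and Nrxn3 at 23.7 in WT striatum, and fell to 4.40 in WT hippocampus, where Lrrtm1 at 34.5 was above Nrxn2 at 32.1. Nlgn1 and Nlgn3 stood far below Nlgn2, at 7.42 and 6.69 in WT frontal cortex.

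**Figure D1:**
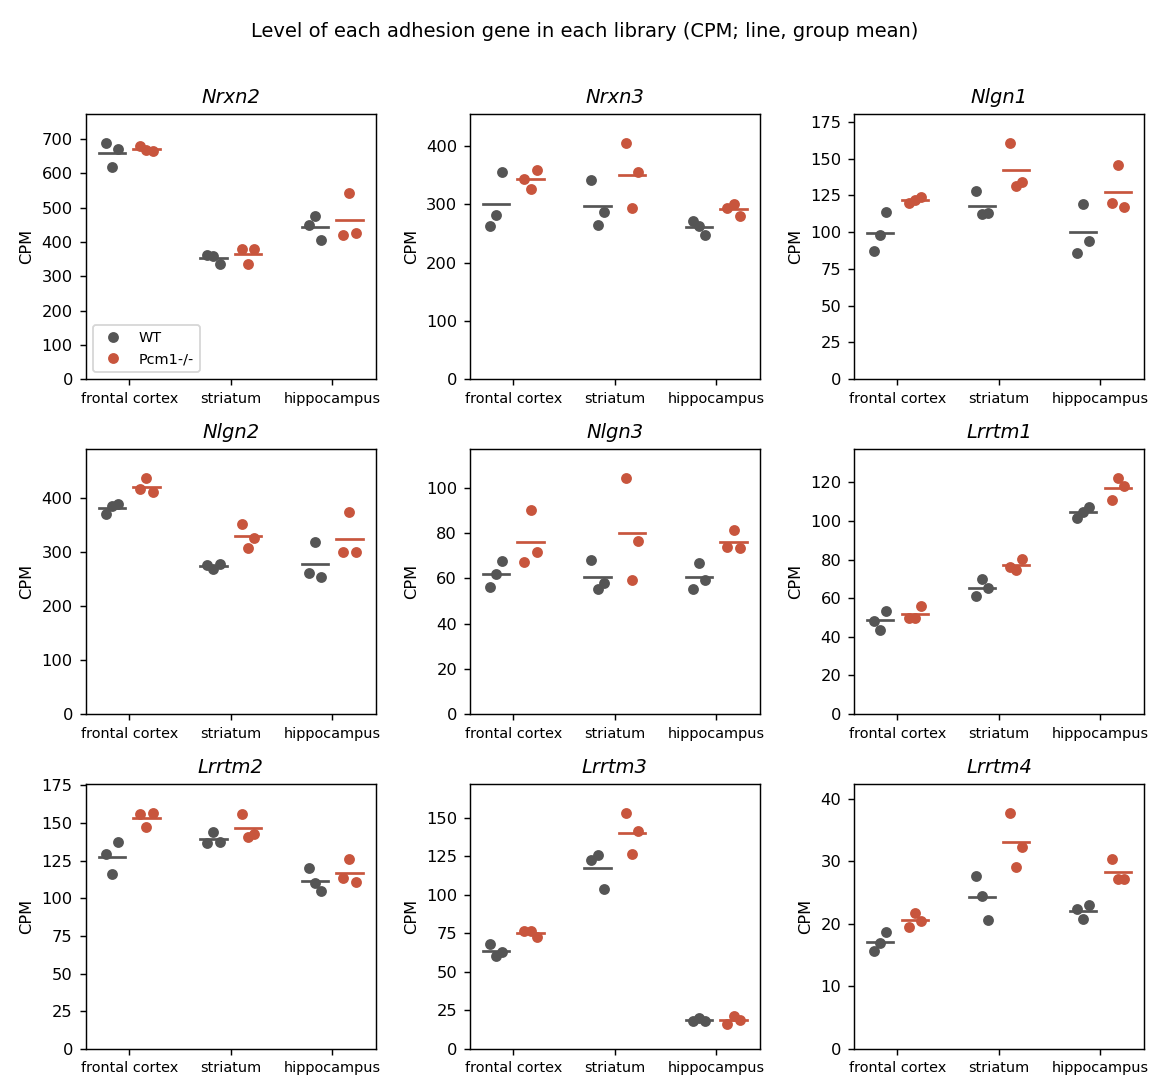
Level of each of the 9 genes in CPM (vertical axes, from 0) in every library, by brain region, with WT in grey and Pcm1-/- in red; short lines are group means of 3 libraries. Lrrtm3 sits between 16.0 and 21.3 CPM in the 6 hippocampal libraries and above 100 CPM in the 6 striatal ones, and the Lrrtm4 mutant points lie above the WT points in all 3 regions.

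To compare the regions, libraries of each genotype were fitted by the quasi-likelihood method of edgeR, with p-values adjusted after Benjamini and Hochberg over 17545 genes and an adjusted p under 0.05 as the threshold. By the animal identifiers in the names of the deposited files, each mouse gave all 3 regions, and the 3 comparisons share libraries. Replicate numbers follow these animals in all groups but WT striatum. In WT mice, striatum differed from frontal cortex in 5 of the 9 genes (41.5% of all genes passed), hippocampus from frontal cortex in 5 (29.8% of all genes) and striatum from hippocampus in 4 (29.2%). In Pcm1-/- mice the counts were 5 (54.3% of all genes), 6 (41.5%) and 5 (45.00%). With so large a share of all genes differing between regions, these counts do not set the 9 genes apart. With all libraries in, Nlgn1 and Nlgn3 passed in none of the 6 comparisons by edgeR.

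**Figure D2:**
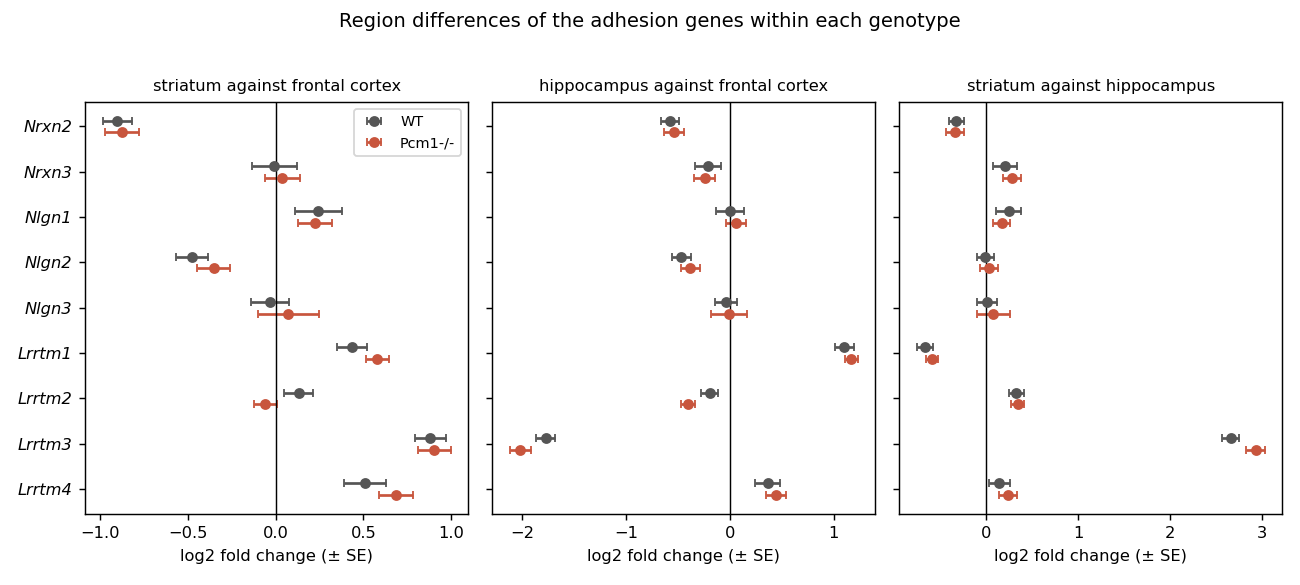
Log2 fold change (horizontal axes, with standard errors; scales differ between panels) between regions for each gene in WT (grey) and Pcm1-/- (red) mice, from fits of 9 libraries per genotype. Lrrtm3 lies farthest from 0, at 2.65 in WT and 2.93 in mutants for striatum against hippocampus, while Nlgn3 stays within 0.08 of 0 in every panel.

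To assess the effect of Pcm1 loss, mutants were compared with WT in each region. At an adjusted p under 0.05 by edgeR, 0 of the 9 genes passed in frontal cortex, where 1.74% of all genes did, 0 in striatum, against 0.0285%, and 0 in hippocampus, against 0.0171%. The fitted log2 fold changes were nevertheless above 0 in 26 of the 27 gene and region combinations, with Lrrtm3 in the hippocampus at −0.03 ± 0.12 (SE) as the exception. Their medians in frontal cortex, striatum and hippocampus were 0.23, 0.26 and 0.15, and those of all genes tested were −0.0066, −0.0023 and −0.00033. At an unadjusted p under 0.05 by edgeR's quasi-likelihood test, 6 of 9 genes were higher in mutant frontal cortex (7.84% of all genes were), 5 in striatum (6.54%) and 3 in hippocampus (4.84%), and 0 were lower. Every mutant library was above every WT library for 5 genes of frontal cortex (12.03% of all genes), 5 of striatum (9.60%) and 4 of hippocampus (10.6%). The regions come from the same 6 mice and the 9 genes from the same libraries, so these counts are not independent of each other. The lowest adjusted p over the 27 was 0.111, and the largest difference was 1.36-fold.

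The calls depended on single libraries and on the tool. DESeq2 called 1 gene in frontal cortex (Lrrtm2), where it called 3.92% of all genes, and 1 in striatum (Nlgn2), against 2.78%. Without WT frontal cortex replicate 3, the highest of the 3 WT libraries in 7 of the 9 genes, edgeR called Nrxn3, Nlgn1 and Lrrtm2 in that region, at log2 fold changes of 0.33, 0.39 and 0.32 and adjusted p-values of 0.0212, 0.0130 and 0.0280, and 4.70% of all genes. Without WT striatum replicate 3, the library with choroid plexus transcripts, 0 genes were called in the striatum and all 9 log2 fold changes stayed above 0, from 0.02 for Nrxn2 to 0.37 for Nlgn3.

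**Figure D3:**
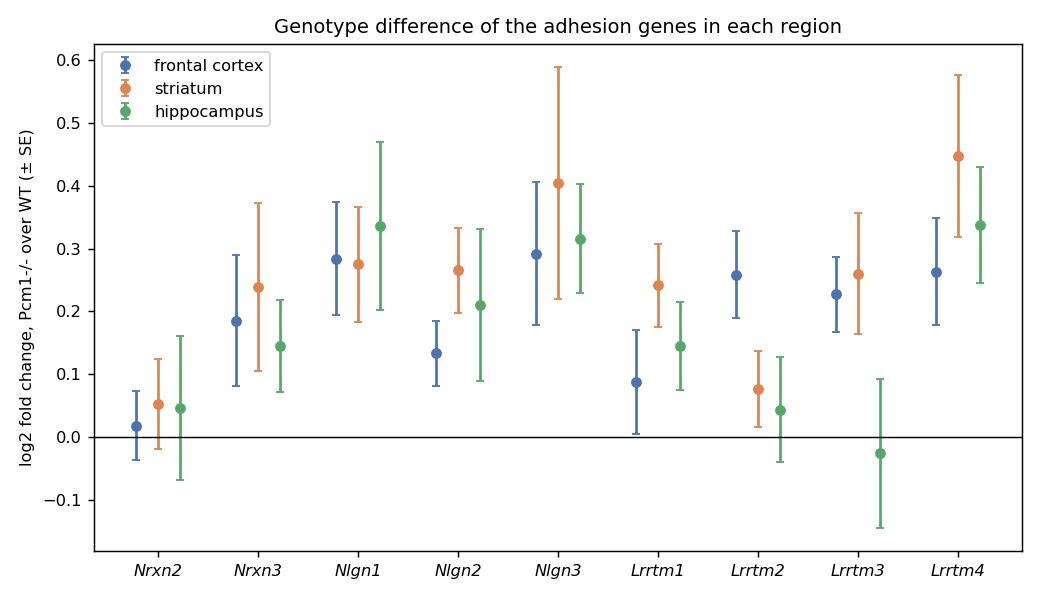
Log2 fold change of Pcm1-/- over WT (vertical axis) with its standard error for each of the 9 genes in the frontal cortex (blue), striatum (orange) and hippocampus (green), 3 mice per genotype. Of the 27 points 26 lie above 0, and none passed the adjusted threshold.

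Cell type markers were compared between the genotypes as well, and some lists lay to 1 side of 0 while others were mixed. All 4 oligodendrocyte markers, all 4 microglia markers and all 3 endothelial markers had log2 fold changes below 0 in every region. Their medians were −0.28, −0.30 and −0.34 for frontal cortex, −0.38, −0.34 and −0.23 for striatum and −0.60, −0.22 and −0.46 for hippocampus, and none passed at an adjusted p under 0.05. Microglia markers summed to 276 to 366 CPM in WT and 237 to 268 CPM in mutant frontal cortex. Of 4 astrocyte markers 2, 1 and 2 were above 0 and 2, 3 and 2 below in frontal cortex, striatum and hippocampus, with medians of −0.04, −0.10 and −0.03. The 4 general neuronal markers, Rbfox3, Snap25, Syt1 and Stmn2, had medians of 0.04, −0.02 and 0.06. In the frontal cortex 1 of the 4, Syt1, a calcium sensor of synaptic vesicles, rose by 0.29 (edgeR adjusted p = 0.0435), and the 4 summed to 7131 to 8252 CPM in WT and 8422 to 8701 CPM in mutants, without overlap. In that region 1 of 5 striatal projection markers also rose (edgeR adjusted p = 0.0177), and 3 of the 5 were above 0 and 2 below. Of 3 excitatory markers there, Slc17a7 rose by 0.26 (adjusted p = 0.0396) and Camk2a fell by 0.32 (adjusted p = 0.0475) on the log2 scale, and Slc17a6 was at 0.51 (adjusted p = 0.258). The 3 summed to 6966 to 7714 CPM in WT and 6561 to 6758 CPM in mutants, again without overlap and in the other direction. In the striatum these 3 were all below 0, from −2.63 to −0.057 with a median of −1.36, and did not pass. Their striatal sums overlapped, at 1780 to 2126 CPM in WT and 1627 to 1986 CPM in mutants. There 5 of 5 markers of striatal projection neurons were above 0, with a median of 0.29, and 5 of 5 cortical projection markers below 0, with a median of −0.10. The 3 inhibitory markers were all above 0 in both frontal cortex and striatum, with medians of 0.16 and 0.08. In hippocampus 2 of these 3 were above 0 and 1 below, with a median of 0.0083. The 3 excitatory markers had a hippocampal median of 0.07 and a lowest value of −1.49, and 4 of 5 striatal projection markers were below 0 there. Whether the share of neuronal RNA in the dissected tissue took part in the differences of the 9 genes was not tested, and in bulk tissue fewer cells of a type and less RNA per cell cannot be told apart. Mutant striatum replicate 2, the mutant library whose oligodendrocyte markers were at the WT level, was the lowest of the 3 mutant libraries in 9 of 9 genes. Mutant hippocampus replicate 2 was the highest of its group in 8 of 9. It had the lowest oligodendrocyte markers of the group, the lowest choroid plexus markers, at 212 CPM against 2312 and 4070 CPM in the other mutant libraries and 2093 to 6159 CPM in WT hippocampus, and the highest general neuronal markers, at 6783 CPM against 5338 and 5024 CPM. Without it the hippocampal log2 fold changes of Nlgn1 and Nlgn2 were 0.24 and 0.10.

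Nrxn2, a presynaptic neurexin, was higher in frontal cortex than in either other region, and had the smallest genotype difference of the 9 in frontal cortex, in striatum and on the sums per mouse, but not in hippocampus. It was at 688, 618 and 673 CPM in the WT frontal cortex libraries and at 680, 669 and 664 CPM in the mutant ones. The striatal values were 361, 358 and 337 CPM in WT and 378, 336 and 379 CPM in mutants, and the hippocampal ones 448, 475 and 407 CPM in WT and 421, 542 and 428 CPM in mutants. All cortical libraries were above all hippocampal ones, and the genotypes overlapped in every region. In WT mice Nrxn2 was lower in striatum than in frontal cortex by a log2 fold change of −0.90 ± 0.08 (SE, edgeR adjusted p = 1.5e-05) and lower in hippocampus than in frontal cortex by −0.58 ± 0.08 (adjusted p = 0.00061). Striatum was below hippocampus by −0.33 ± 0.08 (adjusted p = 0.0135). The genotype differences were 0.02 ± 0.05, 0.05 ± 0.07 and 0.05 ± 0.12 (SE) in frontal cortex, striatum and hippocampus.

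Nrxn3, the other neurexin, changed less between regions. The WT libraries held 263, 283 and 356 CPM in frontal cortex, 343, 264 and 287 CPM in striatum and 272, 263 and 247 CPM in hippocampus. The mutant libraries held 343, 326 and 360 CPM in frontal cortex, 405, 294 and 355 CPM in striatum and 295, 300 and 280 CPM in hippocampus. In the hippocampus the mutants were all above WT, and in the other regions the genotypes overlapped. None of the WT region comparisons passed, with adjusted p-values from 0.251 to 0.967 by edgeR, and in mutants striatum was above hippocampus by a log2 fold change of 0.28 ± 0.10 (SE, adjusted p = 0.0459), a call made in 6 of 15 alternative settings. The genotype difference was 0.19 ± 0.10 in frontal cortex, 0.24 ± 0.13 in striatum and 0.15 ± 0.07 in hippocampus (SE), at adjusted p-values of 0.450, 0.483 and 0.559. The frontal cortex value was 0.33 without WT replicate 3 of that region (adjusted p = 0.0212) and 0.097 without its WT replicate 1, and the striatal value ran from 0.13 without mutant replicate 1 to 0.35 without WT replicate 1.

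Nlgn1, the postsynaptic neuroligin known from excitatory synapses, was higher in mutants at an unadjusted p under 0.05 in all 3 regions, as was Lrrtm4. In single regions 7.84%, 6.54% and 4.84% of all genes were so, and the share of all genes with this in all 3 regions was not counted. Frontal cortex values were 87.0, 97.8 and 114 CPM in WT and 120, 122 and 124 CPM in mutants. Striatal values were 128, 112 and 113 CPM in WT and 161, 131 and 134 CPM in mutants. Hippocampal values were 86.1, 119 and 93.9 CPM in WT and 120, 146 and 117 CPM in mutants. The genotypes did not overlap in the frontal cortex and striatum, and in the hippocampus 1 mutant library, at 117 CPM, lay below the highest WT library. The log2 fold changes were 0.28 ± 0.09, 0.28 ± 0.09 and 0.34 ± 0.13 (SE, n = 3 per group), with unadjusted edgeR p-values of 0.0117, 0.0166 and 0.0372 and adjusted ones of 0.179, 0.263 and 0.480. Without WT frontal cortex replicate 3 the cortical value was 0.39 (adjusted p = 0.0130), and without WT frontal cortex replicate 1 it was 0.19. Without mutant striatum replicate 1 the striatal value was 0.18. Between regions, striatum was above both other regions by 0.24 ± 0.13 in WT and, in mutants, above frontal cortex by 0.23 ± 0.10 and above hippocampus by 0.17 ± 0.10 (SE), and none of these passed. Striatum against hippocampus in WT passed without WT hippocampus replicate 2 (0.39, adjusted p = 0.0414). Without mutant hippocampus replicate 2, mutant striatum passed against frontal cortex (0.23, adjusted p = 0.0183) and against hippocampus (0.27, adjusted p = 0.0159).

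Nlgn2, the neuroligin of inhibitory synapses, was highest in the frontal cortex in either genotype. It was at 370, 385 and 389 CPM in WT and 415, 436 and 409 CPM in mutant frontal cortex. The striatum held 275, 269 and 277 CPM in WT and 352, 307 and 325 CPM in mutants, and the hippocampus 260, 317 and 253 CPM in WT and 299, 374 and 299 CPM in mutants. Mutants lay above WT without overlap in frontal cortex and striatum and overlapped with WT in the hippocampus. WT striatum and WT hippocampus were below WT frontal cortex by log2 fold changes of −0.48 ± 0.09 and −0.47 ± 0.09 (SE, edgeR adjusted p = 0.0019 and 0.0034), and did not differ from each other beyond their error, at −0.01 ± 0.09 (adjusted p = 0.945). The genotype differences were 0.13 ± 0.05, 0.27 ± 0.07 and 0.21 ± 0.12, at unadjusted edgeR p-values of 0.0296, 0.00456 and 0.121 and adjusted ones of 0.268, 0.197 and 0.595. DESeq2 called the striatal difference, at an adjusted p of 0.0233.

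Nlgn3, the X-linked neuroligin, had widely scattered values among the mutants in frontal cortex and striatum. Frontal cortex libraries held 56.3, 62.1 and 67.7 CPM in WT and 67.1, 90.1 and 71.7 CPM in mutants. Striatal libraries held 68.3, 55.3 and 58.0 CPM in WT and 104, 59.3 and 76.6 CPM in mutants. Hippocampal libraries held 55.4, 66.8 and 59.5 CPM in WT and 74.0, 81.6 and 73.3 CPM in mutants. Groups were separate in the hippocampus, and in the striatum the mutants ran from within the WT range to well above it. The genotype log2 fold changes were 0.29 ± 0.11, 0.40 ± 0.18 and 0.32 ± 0.09 (SE), at unadjusted edgeR p-values of 0.0304, 0.0598 and 0.00690 and adjusted ones of 0.271, 0.389 and 0.405. The striatal value was 0.17 without mutant striatum replicate 1 and 0.58 without mutant striatum replicate 2. Reads on Y-linked genes marked 1 WT and 1 mutant mouse as males, so that each genotype held 1 male and 2 females, and the highest mutant values of Nlgn3 in frontal cortex and hippocampus and the lowest in striatum came from the male.

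Lrrtm1, a postsynaptic leucine-rich repeat protein, was a hippocampal gene among the 9. It was at 48.3, 43.7 and 53.4 CPM in WT and 49.7, 49.8 and 55.9 CPM in mutant frontal cortex. Striatal libraries held 61.0, 70.1 and 65.0 CPM in WT and 76.2, 74.8 and 80.5 CPM in mutants, and hippocampal libraries 101, 105 and 107 CPM in WT and 111, 122 and 118 CPM in mutants. Hippocampus, striatum and frontal cortex followed in this order without overlap in each genotype. In WT mice hippocampus was above frontal cortex by a log2 fold change of 1.10 ± 0.09 and striatum above frontal cortex by 0.43 ± 0.09 (SE, edgeR adjusted p = 1.3e-05 and 0.0026), and striatum was below hippocampus by −0.67 ± 0.09 (adjusted p = 0.00019). The mutants were all above WT in striatum and hippocampus, with log2 fold changes of 0.24 ± 0.07 and 0.15 ± 0.07 (SE), and overlapped with WT in frontal cortex, at 0.09 ± 0.08. Adjusted p-values were 0.207, 0.542 and 0.668.

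Lrrtm2, which lies within Ctnna1, was lowest in the hippocampus in both genotypes by its mean. WT libraries held 129, 116 and 137 CPM in frontal cortex, 137, 144 and 137 CPM in striatum and 120, 110 and 105 CPM in hippocampus. Mutant libraries held 156, 147 and 157 CPM in frontal cortex, 156, 141 and 143 CPM in striatum and 113, 126 and 111 CPM in hippocampus. The genotypes were separate in the frontal cortex and overlapped elsewhere. The cortical genotype difference was a log2 fold change of 0.26 ± 0.07 (SE), at an edgeR p-value of 0.00485 before and 0.116 after adjustment, against 0.08 ± 0.06 in striatum and 0.04 ± 0.08 in hippocampus. It was called in 3 of 14 alternative settings, by DESeq2 and without WT frontal cortex replicate 3 among them, with adjusted p-values from 0.0280 to 0.386 over the alternatives. Hippocampus was below frontal cortex by −0.40 ± 0.07 in mutants (adjusted p = 0.00078), called in all 15 alternative settings, and by −0.19 ± 0.08 in WT (adjusted p = 0.102). Striatum was above hippocampus by 0.32 ± 0.08 in WT (adjusted p = 0.0127) and 0.34 ± 0.07 in mutants (adjusted p = 0.0018), and the WT call was lost without WT striatum replicate 2 (adjusted p = 0.0526).

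Lrrtm3, which lies within Ctnna3, had the widest spread between regions. It was at 68.4, 60.4 and 62.8 CPM in WT and 76.3, 76.4 and 72.7 CPM in mutant frontal cortex. The striatum held 123, 126 and 104 CPM in WT and 153, 126 and 142 CPM in mutants. The hippocampus held 18.3, 19.9 and 17.97 CPM in WT and 16.0, 21.3 and 18.5 CPM in mutants. Striatum, frontal cortex and hippocampus were thus ordered without overlap, with the hippocampus lowest, where Lrrtm1 had its highest values. The WT striatum was 6.30-fold above the WT hippocampus (log2 fold change 2.65 ± 0.10, SE, edgeR adjusted p = 2.5e-08) and the mutant striatum 7.61-fold above the mutant hippocampus (2.93 ± 0.10, adjusted p = 4.0e-09). WT frontal cortex lay between, with hippocampus at −1.77 ± 0.09 and striatum at 0.88 ± 0.09 relative to it (adjusted p = 1.0e-06 and 2.6e-05). The genotype differences were 0.23 ± 0.06 in frontal cortex and 0.26 ± 0.10 in striatum (SE), both without overlap, and −0.03 ± 0.12 in hippocampus, at adjusted p-values of 0.111, 0.307 and 0.954. In the striatum the groups nearly touched, with the highest WT library at 125.9 CPM and the lowest mutant library at 126.3 CPM.

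Lrrtm4, the LRRTM gene with the fewest reads in frontal cortex and striatum, was the single gene of the 9 whose mutant libraries were all above the WT libraries in all 3 regions. In single regions 12.03%, 9.60% and 10.6% of all genes were so, and the share of all genes with this in all 3 regions was not counted. It was at 15.7, 16.9 and 18.7 CPM in WT and 19.6, 21.7 and 20.5 CPM in mutant frontal cortex. The striatum held 27.6, 24.5 and 20.7 CPM in WT and 37.8, 29.1 and 32.4 CPM in mutants. The hippocampus held 22.4, 20.8 and 23.0 CPM in WT and 30.4, 27.2 and 27.2 CPM in mutants. The gap between the highest WT and the lowest mutant library was small in the frontal cortex and striatum and wider in the hippocampus. Log2 fold changes were 0.26 ± 0.09, 0.45 ± 0.13 and 0.34 ± 0.09 (SE), at unadjusted edgeR p-values of 0.0136, 0.00833 and 0.00657 and adjusted ones of 0.189, 0.219 and 0.405. The striatal value was 0.34 without WT striatum replicate 3. Between WT regions, striatum and hippocampus were above frontal cortex by 0.51 ± 0.12 (adjusted p = 0.0061) and 0.37 ± 0.12 (adjusted p = 0.0407), and the hippocampal call was made in 9 of 15 alternative settings, with an adjusted p of 0.0121 with the mouse as a block.

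To ask whether the genotype effect depended on the region, genotype by region terms were fitted over the 18 libraries together. Of the 9 genes 0 passed (0.0114% of all genes did), each with an adjusted p of 1, and the lowest unadjusted p by edgeR's quasi-likelihood test was 0.121, for Lrrtm2. Neither the larger cortical value of Lrrtm2 nor the value near 0 of Lrrtm3 in the hippocampus was thus shown to differ from the other regions. With the mouse as a block, an alternative added after the data were seen, 0 of the 9 and 0 of all genes passed by edgeR, and Lrrtm2 had the lowest p-value of the 9, at 0.124 before and 0.760 after adjustment. Since each mouse gave 3 libraries, counts were also summed over the regions of a mouse, matched by the identifier in the file names, which leaves 3 mice per genotype. All 9 log2 fold changes were above 0 on these sums, from 0.04 ± 0.05 for Nrxn2 to 0.35 ± 0.08 for Lrrtm4 (SE). At an adjusted p under 0.05 by edgeR 0 of the 9 passed, where 1.39% of all genes did, with the lowest adjusted p at 0.0620 for Nlgn3, next 0.0831 for Lrrtm4 and 0.0853 for Nlgn1. At an unadjusted p under 0.05, 8 of the 9 genes were higher in mutants, against 8.76% of all genes, the exception being Nrxn2. DESeq2 called 4 of the 9 on these sums, namely Nlgn1, Nlgn2, Nlgn3 and Lrrtm4, and 6.86% of all genes.

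The genes were also summed by family. The 3 neuroligins together were at 513 to 570 CPM in WT and 602 to 648 CPM in mutant frontal cortex, at 436 to 471 and 498 to 617 CPM in striatum and at 401 to 503 and 490 to 601 CPM in hippocampus. The 4 Lrrtm genes were at 237 to 272 and 295 to 306 CPM, 327 to 365 and 371 to 423 CPM, and 253 to 263 and 271 to 297 CPM. Mutants were separate from WT in all 3 regions for the Lrrtm genes and in 2 regions for the neuroligins, and overlapped with WT for the neurexins in every region. The ratios of mutant to WT means were 1.17, 1.15 and 1.09 for the Lrrtm genes, 1.14, 1.22 and 1.21 for the neuroligins and 1.06, 1.10 and 1.07 for the neurexins. With 3 mice against 3 the exact permutation test cannot give a two-sided p below 0.1, and no family difference passed after adjustment over 36 such tests. Whether the families differed from each other in the genotype effect was not tested.

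The share of each gene in its family was computed per kb of exon, with no test between regions. On that scale, Lrrtm1 made up 56.5% ± 1.9 (SD, n = 3) of the Lrrtm transcripts in WT hippocampus and 57.7% ± 1.0 in mutant hippocampus, against 29.0% ± 1.0 and 28.3% ± 1.7 in WT frontal cortex and striatum. Lrrtm3 made up 36.2% ± 2.1 in WT striatum and 7.21% ± 0.41 in WT hippocampus. Lrrtm4 made up 5.07% ± 0.45, 5.17% ± 0.64 and 5.89% ± 0.31 in WT frontal cortex, striatum and hippocampus and 5.28% ± 0.35, 6.08% ± 0.45 and 6.89% ± 0.74 in mutants. Nlgn2 made up 82.4% ± 1.3 of the neuroligin transcripts in WT frontal cortex and 75.6% ± 1.6 in WT striatum. Nrxn2 and Nrxn3 were near parity in WT striatum, where Nrxn2 held 52.0% ± 3.1, and Nrxn2 led in WT frontal cortex with 66.8% ± 3.6.

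The other genes of trans-synaptic adhesion were taken as 76 genes in 5 lists, none of them a member. In the frontal cortex 3 of the 76 rose in mutants at an adjusted p under 0.05 and 0 fell, where 1.74% of all genes passed, and all 3 encode postsynaptic leucine-rich repeat proteins. Slitrk2, a partner of presynaptic receptor phosphatases, was at 64.8 against 46.8 CPM (log2 fold change 0.46 ± 0.07, SE, edgeR adjusted p = 0.0205). Slitrk4 was at 104 against 72.6 CPM (0.50 ± 0.09, adjusted p = 0.0378), and Flrt2, a partner of latrophilins, at 154 against 129 CPM (0.25 ± 0.05, adjusted p = 0.0422). In the striatum and hippocampus 0 of the 76 passed by edgeR, against 0.0285% and 0.0171% of all genes. In the striatum Grid1, a receptor for cerebellin bound to neurexins, was at 0.39 ± 0.08 (adjusted p = 0.128). In the hippocampus the smallest p-values belonged to Lrfn2 at 0.41 ± 0.08 and to the glypican gene Gpc4 at 0.39 ± 0.10 (both at an adjusted p of 0.391).

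By list, the 28 postsynaptic adhesion partners had 17, 17 and 11 genes higher in mutants and 0, 1 and 0 lower at an unadjusted p under 0.05 by edgeR in frontal cortex, striatum and hippocampus, with median log2 fold changes of 0.17, 0.22 and 0.23. The 17 presynaptic receptors and organisers had 6, 4 and 3 genes higher and 0, 1 and 1 lower, with medians of 0.13, 0.13 and 0.16. Among 10 secreted bridging ligands 2, 2 and 1 were higher and 0, 1 and 2 lower, and among 18 inhibitors and intracellular partners, which include scaffolds and the Mdga genes that block neuroligins, 0 were higher in any region and 5, 0 and 1 were lower. The shares of all genes higher at that threshold are the 7.84%, 6.54% and 4.84% given above, and the shares lower were 7.47%, 6.98% and 5.06%. On the sums per mouse, Lrrn3, Lrfn2, Flrt2 and Slitrk3 passed at an adjusted p under 0.05, at log2 fold changes of 0.25, 0.30, 0.24 and 0.27, where 1.39% of all genes passed. The alpha-catenin genes that host Lrrtm genes did not pass in any region, with genotype log2 fold changes from −0.31 to −0.12 for Ctnna1, 0.06 to 0.12 for Ctnna2 and −0.34 to −0.00 for Ctnna3.

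**Figure D4:**
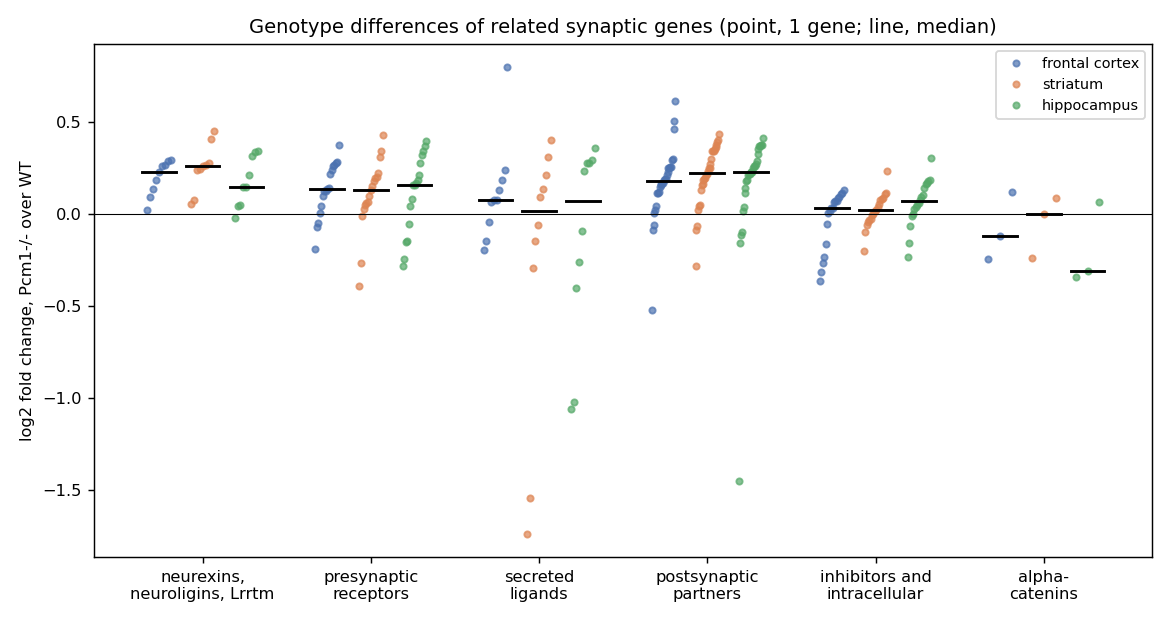
Log2 fold change of Pcm1-/- over WT (vertical axis) for the 9 genes and for each gene of the 5 lists, in frontal cortex (blue), striatum (orange) and hippocampus (green), with medians as black lines. The medians of the postsynaptic partners (0.17, 0.22 and 0.23) lie near those of the 9 genes (0.23, 0.26 and 0.15), and those of the inhibitors and intracellular partners lie near 0.

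Between WT regions, 56 of the 76 genes differed between striatum and frontal cortex (41.5% of all genes did), 50 between hippocampus and frontal cortex (29.8%) and 46 between striatum and hippocampus (29.2%). Of the 10 secreted ligands 8, 7 and 7 differed, and of the 18 inhibitors and intracellular partners 16, 11 and 12. The 5 genes with the smallest p in each comparison are given here, and C1ql3, C1ql2, Nptx1 and Nptxr among them belong to the C1q-like and neuronal pentraxin families. Striatum was below frontal cortex by log2 fold changes of −5.11 ± 0.23 for C1ql3, −3.41 ± 0.16 for Nptxr, −3.10 ± 0.16 for Nptx1, −2.88 ± 0.15 for the scaffold gene Shank1 and −2.41 ± 0.13 for Lrfn2 (SE). Hippocampus was above frontal cortex by 6.86 ± 0.25 for C1ql2, 3.09 ± 0.12 for the neuroligin inhibitor Mdga1 and 4.32 ± 0.32 for Slitrk6, and below it by −1.48 ± 0.08 for Flrt1 and −1.54 ± 0.10 for the latrophilin gene Adgrl2. Striatum was below hippocampus by −4.83 ± 0.21 for C1ql2, −4.27 ± 0.22 for C1ql3, −3.72 ± 0.17 for Nptx1, −3.01 ± 0.16 for Nptxr and −2.38 ± 0.13 for Lrfn2. Each of these passed at an adjusted p under 0.05. Lrrtm3 went the other way in the last comparison. Among the alpha-catenin hosts, Ctnna3 (host of Lrrtm3) was at 2.18, 5.58 and 4.00 CPM in WT frontal cortex, striatum and hippocampus, Ctnna2 (host of Lrrtm1) at 175, 132 and 123 CPM and Ctnna1 (host of Lrrtm2) at 62.9, 124 and 84.8 CPM. Like its host, Lrrtm3 was highest in the striatum, but it was lowest in the hippocampus and Ctnna3 in the frontal cortex. Lrrtm1 was lowest in the frontal cortex, where Ctnna2 was highest, and Ctnna2 in striatum and hippocampus differed by 0.10 ± 0.06 (SE, adjusted p = 0.297).

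The genes most like each member were taken as those with the smallest root mean square difference of log2 CPM over the 18 libraries after each gene's own mean was removed, among 12870 genes with a mean log2 CPM of at least 1. For Nrxn2 they were Gnaz at 0.089 and Tuba4a at 0.091, for Nrxn3 Ksr2 at 0.10 and Impad1 at 0.11, and for Nlgn1 Adgrb3 at 0.093 and Trpc1 at 0.10. Nlgn2 was nearest to Ids at 0.072 and Map9 at 0.074, and Nlgn3 to Nucks1 at 0.11 and Slitrk5 at 0.15. Lrrtm1 was nearest to Ncdn at 0.12 and Ttc39c at 0.14, Lrrtm2 to Atf6 at 0.083 and Tmem184b at 0.094, Lrrtm3 to Arhgap10 at 0.17 and Arpp19 at 0.18, and Lrrtm4 to Slc35f3 at 0.12 and Ube2g2 at 0.15. No member had another member among its 2 nearest genes. The nearest member of Lrrtm3, Lrrtm2, was at 1.02, while the root mean square of Lrrtm3 itself was 1.17, and Nlgn1 and Nlgn3 were each other's nearest member at 0.16.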

How the data were processed

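RNA was sequenced from frontal cortex, striatum and hippocampus of 3 WT and 3 Pcm1-/- adult mice, with poly(A) libraries made by a stranded kit. Per the labels and the methods, the authors trimmed reads with Trim Galore and cutadapt, aligned them to GRCm38 with STAR, and used HTSeq to count uniquely placed reads per Ensembl gene; tool versions and the strand setting are not given in the sources used here. The deposited values are raw counts per gene, with 1 file per library and no normalization. Of 38561 identifiers, 36639 had a symbol and a position in GENCODE vM21 (same build, other release). Reads on no gene, 8.98% to 11.6% of the total, and ambiguous reads, 1.58% to 1.79%, were left out.

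Differential expression was tested with edgeR 4.0.16 (R 4.3.3, TMM factors, quasi-likelihood test, Benjamini-Hochberg adjustment) on the 17545 genes that reached 10 counts in 1 library or more, within each region for genotype and within each genotype for regions. CPM used TMM factors over all 18 libraries and log2 CPM a prior count of 2. Family totals and shares were compared by two-sided exact permutation tests. Standard errors were derived from the F statistic. Steps were tested on simulated data with 100 genes set to a log2 change of 0.5. Of these, 69%, 38% and 15% were recovered for genotype in frontal cortex, striatum and hippocampus, 58% on the sums per mouse and 13% for the interaction. False calls made up 6.21%, 5.07%, 13.3%, 11.2% and 2.15% of all calls in the same order. Alternatives were DESeq2 1.42.0, other size factors and filters, fits of all libraries, lane, replicate or animal as a block, and leaving out each library. Python 3.11.15 was used with matplotlib 3.10.9, scipy 1.17.1, pandas 2.3.3 and numpy 2.4.6.

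Groups and replicate numbers came from the labels, and the animal of each library from an identifier in the names of the deposited files, which the labels do not give. The 6 libraries with over 1000 reads on Y-linked genes were those of 1 WT and 1 mutant identifier. The 3 libraries of a group are separate mice of 1 breeding line. The 9 genes, the lists and the tests were chosen with earlier results of these data known. Named genes are the 9, Pcm1, the alpha-catenin hosts, list genes at an adjusted p under 0.05 or else the 2 smallest p per region, the 5 smallest p in each WT region comparison, and the 2 genes most like each of the 9. The result of 1 list gene that this rule names in the striatum is not reported here. Protein, imaging and behavioral data were not analysed here.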

Additional observations from a re-analysis of the deposited data

How the results depend on the processing

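Genotype: 0 of the 9 genes passed in every region by edgeR. DESeq2 called 1 in frontal cortex (Lrrtm2), 1 in striatum (Nlgn2) and 4 on counts summed per mouse, and without a filter on low counts 1 (Nlgn3) was called on the sums (1.14% of all genes). Leaving out 1 library or mouse gave 0 to 3 called genes in the frontal cortex (3 without WT replicate 3) and 0 to 2 on the sums (2, Nlgn3 and Lrrtm4, without the WT mouse that gave frontal cortex replicate 3, against 2.27% of all genes). Related genes called in the frontal cortex numbered 3 of 76, 13 by DESeq2 (3.92% of all genes) and 11 without a filter on low counts (2.22%), and DESeq2 called 8 in striatum (2.78%) and 1 in hippocampus (1.21%). Of 450 alternative values for single genes, 9 had the other sign and 13 passed where the reported one did not. The cause of these shifts was not tested.

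The replicate numbers were not taken as pairing the genotypes, since mice of different genotype share only a number and not every correlation exceeded 0.1. The correlations of same-numbered WT and mutant libraries were 0.043, 0.26 and 0.20 for frontal cortex, 0.18, −0.16 and −0.27 for striatum and 0.096, 0.51 and 0.19 for hippocampus. Their means were 0.17, −0.082 and 0.27, against −0.083, 0.044 and −0.13 for different numbers. The highest value in each region (0.26, 0.39 and 0.51) was that of the 2 male libraries, which share a number in frontal cortex and hippocampus only, and a term for sex was not fitted. The replicate block gave 1 called gene of the 9 in the frontal cortex (Lrrtm2, adjusted p = 0.0360), 11 related genes and 3.79% of all genes. Between regions, the mouse (from the file names) as a block changed no call for any of the 9 genes, while the replicate numbers do not follow the mice in WT striatum.

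Values that changed sign with every library kept were near 0 and uncalled. Those that changed sign when 1 library was left out were also uncalled, and reached −0.16 for Nlgn3 in mutant striatum against frontal cortex. Nrxn2 in the striatum was −0.024 with lane in the fit of all libraries, and Lrrtm3 in the hippocampus 0.013 with lane within the region. Without a filter, Nrxn3 was 0.015 in WT striatum against frontal cortex. For Nlgn1 in WT hippocampus against frontal cortex, DESeq2 gave 0.00911, its size factors in edgeR 0.00913, no filter 0.017 and the fit of all libraries 0.00305. For Nlgn3 in WT striatum against hippocampus DESeq2 gave −0.00900, its size factors −0.00897 and the fit of all libraries −0.00107, and in mutant hippocampus against frontal cortex DESeq2 gave 0.00180, its size factors 0.00104, no filter 0.00377 and the fit of all libraries 0.000545.

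Leaving out 1 library moved 13 of the 27 genotype values by over 1.5 times. Of those above 0 throughout, Nlgn2 in hippocampus ran from 0.10 to 0.31, Nlgn3 from 0.15 to 0.38 in frontal cortex and 0.17 to 0.58 in striatum, Lrrtm1 in frontal cortex from 0.026 to 0.16, Nlgn1 in striatum from 0.18 to 0.34, Nrxn3 from 0.097 to 0.33 in frontal cortex and 0.13 to 0.35 in striatum, and in striatum Lrrtm2 from 0.031 to 0.10 and Nrxn2 from 0.019 to 0.10. It also moved genotype log2 fold changes from −0.020 to 0.048 for Nrxn2 in frontal cortex, and for hippocampus from −0.074 to 0.097 for Nrxn2, −0.0099 to 0.10 for Lrrtm2 and −0.13 to 0.059 for Lrrtm3. In WT striatum against frontal cortex the ranges were −0.12 to 0.13 for Nrxn3 and −0.13 to 0.032 for Nlgn3, in hippocampus against frontal cortex −0.15 to 0.11 for Nlgn1 and −0.11 to 0.033 for Nlgn3, and in striatum against hippocampus −0.060 to 0.099 for Nlgn2 and −0.097 to 0.081 for Nlgn3. In mutant striatum against frontal cortex they were −0.076 to 0.15 for Nrxn3 and −0.16 to 0.25 for Nlgn3, in hippocampus against frontal cortex −0.049 to 0.12 for Nlgn1 and −0.091 to 0.13 for Nlgn3, and in striatum against hippocampus −0.030 to 0.15 for Nlgn2 and −0.16 to 0.25 for Nlgn3. Of the region calls, Lrrtm4 in WT hippocampus against frontal cortex was lost under the replicate block (adjusted p = 0.075), and Nrxn2 in mutant striatum against hippocampus without mutant striatum replicate 2 (adjusted p = 0.058).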
